A study of Homo sapiens with 12 samples.

Results

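The genes carried by mitochondrial DNA were followed in 12 RNA libraries of Huh-7.5 cells, a human hepatocellular carcinoma line. They were taken as every row of the deposited count table whose name begins with MT-, which gave 37 of 61255 rows: 13 protein-coding genes, 2 ribosomal RNA genes and 22 transfer RNA genes. The cells of all 12 libraries expressed APEX2, an engineered peroxidase used for proximity labelling, in 1 of 3 genotypes named APEX-NES, APEX-NLS and APEX-G3BP1, called NES, NLS and G3BP1 here. The first pair of names is the common shorthand for signals that send a protein out of or into the nucleus, and G3BP1 is a core component of stress granules. Libraries of every line were made after a mock treatment and after 45 minutes in 0.5 mM sodium arsenite, with 2 numbered libraries in each of the 6 groups. The purpose stated for the series was to follow transcriptome changes of these lines under stress. Every group carries an APEX2 construct, and the labels do not say which promoter drives it, whether a line is 1 clone, or whether the 2 libraries of a group came from separate cultures. The p-values below therefore measure the spread between these libraries, which may be technical.

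Human mitochondrial DNA is a small circle, and both of its strands are transcribed into long RNAs that are cut into single messengers, ribosomal RNAs and transfer RNAs, mostly at the transfer RNA genes that punctuate the circle. The 28 genes called heavy-strand genes here lie on the plus strand of the annotation and are read in 1 direction, and the 9 light-strand genes, MT-ND6 and 8 transfer RNA genes, are read in the other. The proteins are subunits of 4 complexes of oxidative phosphorylation, the process by which mitochondria make ATP. As background, messengers of the heavy-strand genes are usually among the most abundant RNAs of a human cell, and stretches of the light-strand RNA that carry no gene are usually degraded quickly.

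Positions are those of GENCODE release 29 on GRCh38, the assembly that the submitters' processing notes name. The genes lie end to end, and several share bases. The transfer RNA sequences that follow belong to the 4 light-strand neighbours MT-TA, MT-TN, MT-TC and MT-TY, whose rows had the highest levels among transfer RNAs, and to MT-TR and MT-TH, whose rows fell most after arsenite. They are GENCODE transcript sequences in the sense direction, 5′ to 3′, with the anticodon in capitals.
MT-TA (alanine, chrM:5587-5655, minus strand): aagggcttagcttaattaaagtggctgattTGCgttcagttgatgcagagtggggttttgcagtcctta
MT-TN (asparagine, chrM:5657-5729, minus strand): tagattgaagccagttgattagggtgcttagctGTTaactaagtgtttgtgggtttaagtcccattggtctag
MT-TC (cysteine, chrM:5761-5826, minus strand): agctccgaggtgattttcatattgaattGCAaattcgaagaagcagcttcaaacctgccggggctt
MT-TY (tyrosine, chrM:5826-5891, minus strand): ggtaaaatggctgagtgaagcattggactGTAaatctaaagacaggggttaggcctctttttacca
MT-TR (arginine, chrM:10405-10469, plus strand): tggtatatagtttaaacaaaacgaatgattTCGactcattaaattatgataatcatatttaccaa
MT-TH (histidine, chrM:12138-12206, plus strand): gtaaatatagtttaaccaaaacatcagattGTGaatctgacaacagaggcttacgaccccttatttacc

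These 6 genes are between 65 and 73 bases long, so a sequencing read can reach past them into a neighbour. MT-TA and MT-TN are 1 base apart, MT-TN and MT-TC 31 bases apart, and MT-TC and MT-TY share 1 base. The longest overlap on a strand is between the ATP synthase genes MT-ATP8 and MT-ATP6, whose reading frames share 46 bases. It is shown with the start codon of MT-ATP6 in capitals, because a read from it belongs to both rows.
MT-ATP8 and MT-ATP6 overlap (chrM:8527-8572, plus strand): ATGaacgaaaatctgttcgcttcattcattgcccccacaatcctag
How reads that touch 2 genes, or that also match nuclear copies of mitochondrial DNA, were counted is not given in the sources used here. Neighbouring rows can hold the same molecules, so they are not independent of each other.

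The 12 libraries held 1090308 to 1461067 counts, with 1238995 ± 99562 in mock and 1344907 ± 112647 in arsenite libraries (SD, n = 6 each). At these totals 3 counts, the smallest level treated as detectable, were 2.05 to 2.75 CPM (counts scaled to a common library size), a limit that covers counting error only. TALAM1, the antisense partner of the nuclear RNA MALAT1, had 44233 to 81932 counts and MALAT1 itself had 16 to 37. Of 12 hepatocyte marker rows, all were in the table but summed to 285 to 423 counts in mock and 327 to 509 in arsenite libraries, with 11 to 29 for ALB and at most 1 for TTR. Of 9 rows marking leukocytes, endothelium, fibroblasts or bile duct cells, CD68 had 12 to 30 counts, PECAM1 at most 14 and VWF 0 in all libraries. The sum of these 9 rows was 32 to 40 counts in mock and 18 to 32 in arsenite libraries, and its part in the results was not tested. The G3BP1 row had 1 to 23 counts. A row name therefore does not settle which strand its reads came from, and which strand was counted is not given in the sources used here.

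The mitochondrial rows held between 23648 and 36224 counts per library. Their share of all counts was 2.40% and 2.38% in NES mock, 2.31% and 2.02% in NES arsenite, 2.63% and 2.56% in NLS mock, and 2.45% and 2.37% in NLS arsenite libraries. In G3BP1 it was 2.83% and 3.11% in mock and 2.45% and 2.56% in arsenite libraries. Wilson 95% intervals reached at most 0.0317 percentage points to either side of these shares. Within each line both arsenite libraries lay below both mock libraries, whereas over the 3 lines the 2.36% ± 0.187 of arsenite and the 2.65% ± 0.277 of mock libraries overlapped (SD, n = 6 each). The difference in means was −0.226 percentage points in NES, −0.188 in NLS and −0.459 in G3BP1. In bulk RNA a smaller share cannot be told apart from more RNA of other genes, and as a sum over chosen rows it was given no test.

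**Figure D1:**
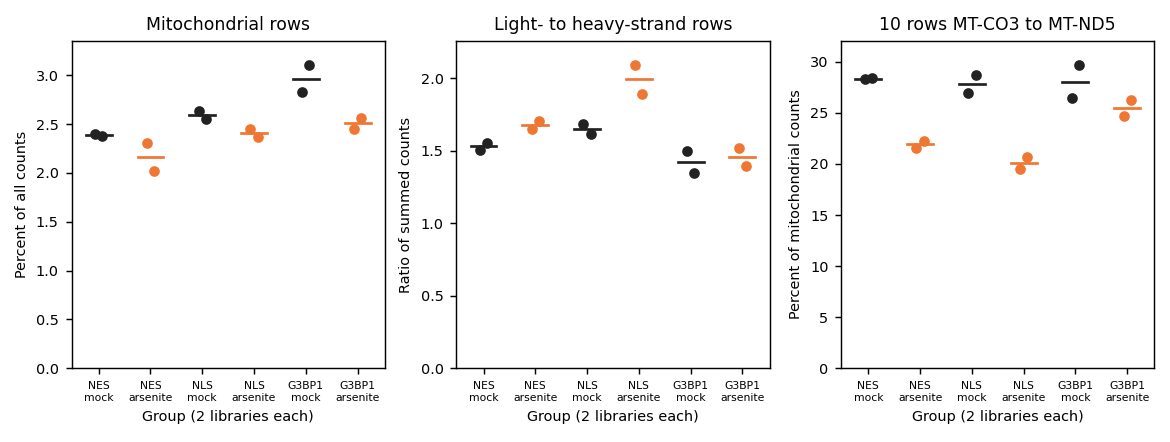
Share of mitochondrial rows in all counts (left, percent), ratio of summed light-strand to heavy-strand rows (middle) and share of the 10 rows from MT-CO3 to MT-ND5 in mitochondrial counts (right, percent), with 1 point per library and a line at the group mean. Arsenite libraries (orange) lie below mock libraries (black) of the same line in the left and right panels. The 10 rows of the right panel were chosen after their values were seen.

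The rows of light-strand genes held more counts than the rows of heavy-strand genes in every library. If the strand opposite to each gene was counted, these rows hold RNA of the other direction, and the ratio of light-strand to heavy-strand RNA is the inverse of the values given here. The ratio of light to heavy counts was 1.51 and 1.55 in NES mock, 1.65 and 1.71 in NES arsenite, 1.69 and 1.61 in NLS mock, and 2.09 and 1.89 in NLS arsenite libraries. In G3BP1 it was 1.502 and 1.35 in mock and 1.52 and 1.40 in arsenite libraries. The arsenite libraries were thus above the mock libraries in NES and NLS and overlapped with them in G3BP1. Turned round, heavy over light, the ratio was 0.593 to 0.741 in mock and 0.478 to 0.715 in arsenite libraries. MT-ND6 alone held 27.8% to 34.7% of mitochondrial counts in mock and 30.8% to 38.2% in arsenite libraries, and it was the row with the 5th highest sum of counts in the whole table.

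Levels of different genes are compared here as mean CPM per kilobase of gene length in mock libraries. The 2 ribosomal RNA rows were lowest among the 15 rows that are not transfer RNAs, with 2.24 ± 0.947 for MT-RNR1 and 9.58 ± 4.06 for MT-RNR2 (SD, n = 6). Ribosomal RNA had been depleted from the libraries, and the part of this depletion in these levels was not tested. The transfer RNA rows next to them stood at 1.82 for MT-TF, 10.5 for MT-TV and 49.5 for MT-TL1. Among the heavy-strand messengers the level was 154 ± 18.0 for MT-ND2, 196 ± 41.1 for MT-CO2 and 222 ± 21.99 for MT-ND1. Going on around the circle it was 637 ± 53.1 for MT-CO3, 1449 ± 153 for MT-ND3, 882 ± 184 for MT-ND4, 2192 ± 366 for MT-ND5 and 1241 ± 393 for MT-CYB. MT-ND2 and MT-CO2, like MT-ND4 and MT-CYB, differed by less than the sum of their SDs. MT-ND6, on the light strand, stood at 16229 ± 1166. Of the 8 light-strand transfer RNA rows, MT-TY, MT-TC, MT-TN, MT-TA, MT-TE and MT-TS1 lay between 8560 and 29285, above all 14 heavy-strand transfer RNA rows, whose median was 637 and whose highest was 4496 for MT-TS2. The other light-strand transfer RNA rows, MT-TP at 4184 and MT-TQ at 1404, were below MT-TS2. These levels belong to the rows as named. TALAM1 had 44233 to 81932 counts and its partner MALAT1 16 to 37. If the strand opposite to each gene was counted, the MT-ND6 row and the light-strand transfer RNA rows hold RNA in the direction of the heavy-strand genes. The strands then change places in this ranking. Which strand was counted was not tested. For genes this short the value per length depends on how reads that reach past their ends were counted.

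**Figure D2:**
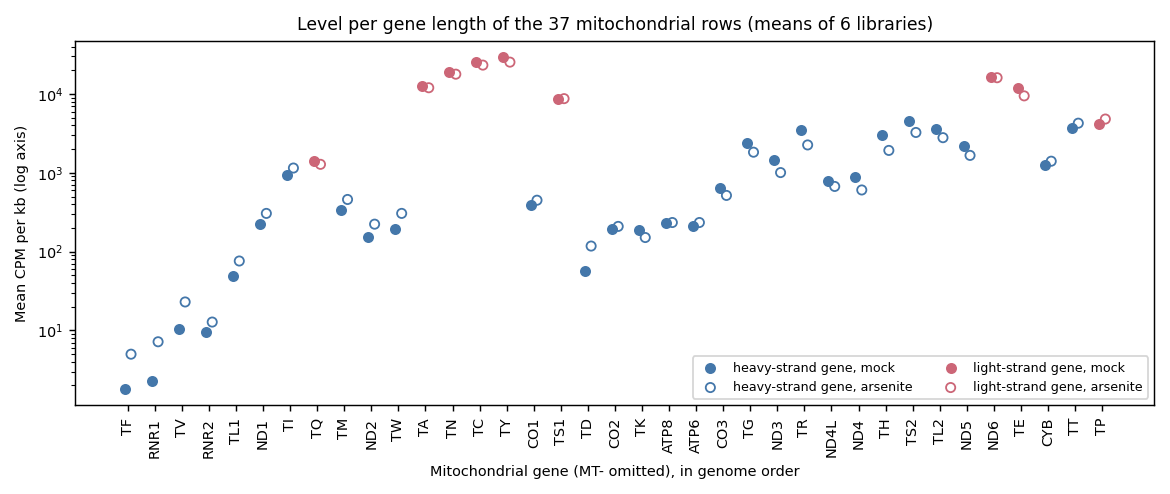
Mean CPM per kilobase (log axis) of the 37 mitochondrial rows in genome order, in mock (filled) and arsenite (open) libraries, n = 6 each, with no error bars. The light-strand rows from MT-TA to MT-TY and the rows MT-ND6 and MT-TE stand above the heavy-strand rows around them, and the highest heavy-strand messenger is MT-ND5.

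The average effect of arsenite was tested in all 12 libraries with edgeR's quasi-likelihood test, adjusted by the Benjamini-Hochberg method over 13108 rows, and rows with an adjusted p under 0.05 are said to have risen or fallen. Of the 37 mitochondrial rows, 34 passed the filter on low counts and MT-TF, MT-TV and MT-TL1, with at most 12 counts in any library, did not. Of the 34, 24 were called, 11 higher and 13 lower after arsenite, against 38.0% of all rows tested, 19.4% higher and 18.6% lower. The 34 rows had means from 5.75 counts per library for MT-RNR1 to 10680 for MT-ND6. Shares over all rows, here and below, cover every depth above the filter, and a small change is easier to call in a row with many counts. Rows of like depth were not compared, and the part of depth in these counts of calls was not tested. The median log2 fold change of the 34 was −0.0293, beside −0.0122 over all rows. Of 25 heavy-strand rows tested, 10 rose and 10 fell, and of 9 light-strand rows 1 rose and 3 fell. The 10 heavy-strand rows that rose include MT-RNR1, which passed the filter only through the NES arsenite libraries, where it is high. Among heavy-strand rows the direction followed the place on the circle. The 10 heavy-strand rows from MT-CO3 to MT-ND5 (chrM:9207-14148) all fell, and 10 of the other 15 heavy-strand rows rose while none fell. Light-strand rows did not follow this split, as MT-TC, MT-TY and MT-TE fell outside the stretch. This stretch was delimited after its values were seen, and its count is a description.

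**Figure D3:**
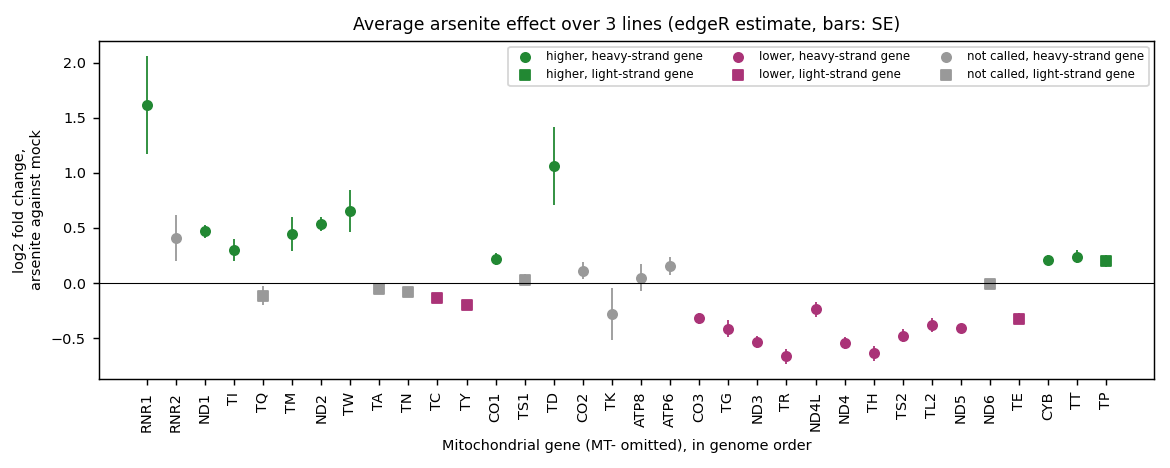
Log2 fold change of arsenite against mock, averaged over the 3 lines, for the 34 tested mitochondrial rows in genome order (bars are standard errors; circles heavy-strand, squares light-strand genes). Rows from MT-CO3 to MT-ND5 lie below 0, and rows from MT-RNR1 to MT-CO1 on the heavy strand and MT-CYB to MT-TP lie above it.

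Complex I, the NADH dehydrogenase that passes electrons from NADH to ubiquinone, has 7 mitochondrially encoded subunits. Of their rows 2 rose, 4 fell and MT-ND6 was not called. From here on a gene name stands for the row of that name. If the strand opposite to each gene was counted, the changes are those of RNA antisense to the named genes, which was not tested. MT-ND1 (ENSG00000198888.2, chrM:3307-4262) had 211 and 196 CPM in NES mock and 307 and 292 CPM in NES arsenite libraries. In NLS it had 194 and 195 CPM in mock and 287 and 268 CPM after arsenite, and in G3BP1 240.2 and 235 CPM in mock and 279 and 319 CPM after arsenite. All 6 arsenite libraries were above all 6 mock libraries, and the log2 fold change was 0.47 (SE 0.0577, adjusted p = 2.70e-11 by edgeR). MT-ND2 (chrM:4470-5511) had 146 to 189 CPM in mock libraries with a median of 151, and 209 to 273 CPM in arsenite libraries with a median of 224. Its groups did not overlap either, with a log2 fold change of 0.53 (SE 0.0621, adjusted p = 2.94e-12 by edgeR).

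MT-ND3, whose product sits in the membrane arm of complex I like those of the other subunits encoded here, moved the other way. MT-ND3 (chrM:10059-10404) had 500.1 and 482 CPM in NES mock, 341 and 273 CPM in NES arsenite, 458 and 509 CPM in NLS mock and 318 and 299 CPM in NLS arsenite libraries. In G3BP1 it had 459 and 601 CPM in mock and 412 and 448 CPM after arsenite. All arsenite libraries were below all mock libraries, by a log2 fold change of −0.54 (SE 0.0550, adjusted p = 1.20e-14 by edgeR).

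MT-ND4 (chrM:10760-12137) had 1041 and 958 CPM in NES mock, 829 and 687 CPM in NES arsenite, 1207 and 1166 CPM in NLS mock and 678 and 746 CPM in NLS arsenite libraries. The G3BP1 line had 1238 and 1685 CPM in mock and 876 and 1194 CPM after arsenite. Within each line the arsenite libraries were lower, while over the lines the groups overlapped, with G3BP1 the highest line in both treatments. The log2 fold change was −0.54 (SE 0.0508, adjusted p = 1.47e-16 by edgeR).

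MT-ND5 (ENSG00000198786.2, chrM:12337-14148), the most counted heavy-strand row, had 3552 and 3693 CPM in NES mock, 2688 and 2527 CPM in NES arsenite, 3483 and 3609 CPM in NLS mock and 2603 and 2649 CPM in NLS arsenite libraries. In G3BP1 it had 4314 and 5179.8 CPM in mock and 3649.6 and 3981 CPM after arsenite. It fell by 0.41 on the log2 scale (SE 0.0380, adjusted p = 1.20e-16 by edgeR), with the arsenite libraries below the mock libraries within each line. MT-ND4L, which shares 7 bases with MT-ND4, fell by 0.24 (SE 0.0675, adjusted p = 0.00286 by edgeR, DESeq2 adjusted p = 0.130).

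MT-ND6 (ENSG00000198695.2, chrM:14149-14673), the only protein-coding light-strand gene, had a lowest level of 7673 CPM, a median of 8682 CPM and a highest level of 9128 CPM in mock libraries. In arsenite libraries these were 7159, 8585 and 9347 CPM, so that the groups overlapped. Its log2 fold change was −0.0078 (SE 0.0366, adjusted p = 0.890 by edgeR). MT-ND5 and MT-ND6 lie on opposite strands and meet with 0 bases between them, the first fallen and the second not called.

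**Figure D4:**
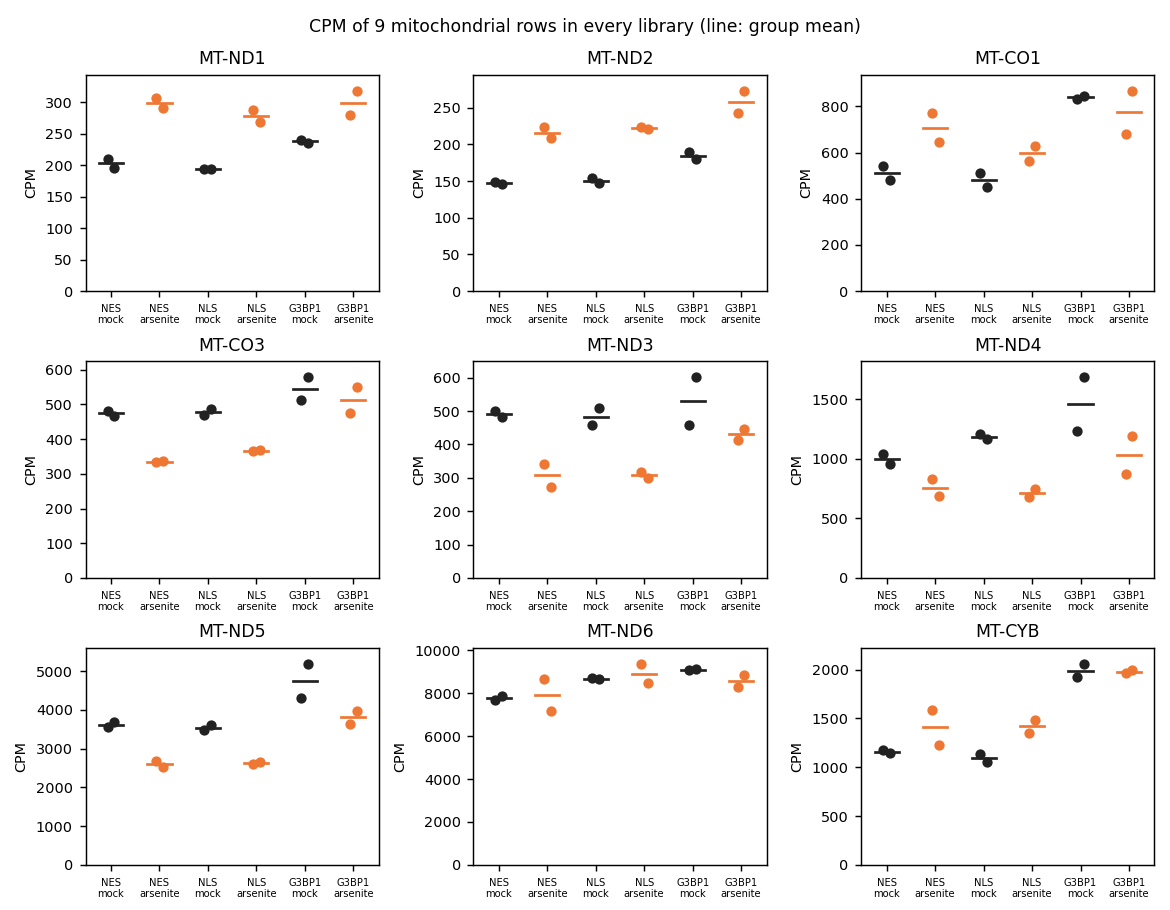
CPM of 9 mitochondrial protein-coding rows in every library, with 1 point per library, mock black and arsenite orange, and a line at the group mean (n = 2). MT-ND1 and MT-ND2 are higher after arsenite in every line, MT-ND3, MT-ND4 and MT-ND5 are lower in every line, and MT-CO1 and MT-CYB are higher in NES and NLS and overlap in G3BP1.

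Complex III, which hands electrons to cytochrome c, has 1 subunit encoded here, cytochrome b. Its row MT-CYB (chrM:14747-15887) had 1175 and 1147 CPM in NES mock, 1588 and 1230.0 CPM in NES arsenite, 1137 and 1059 CPM in NLS mock and 1349 and 1488 CPM in NLS arsenite libraries. Levels in G3BP1 were 1927 and 2055 CPM in mock and 1965 and 1997 CPM after arsenite. The average log2 fold change was 0.21 (SE 0.0442, adjusted p = 4.73e-05 by edgeR), with arsenite above mock in NES and NLS and overlap in G3BP1. MT-CYB lies beyond MT-ND6 on the circle, outside the stretch that fell.

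Complex IV, cytochrome c oxidase, gives electrons to oxygen, and the rows of its 3 mitochondrial subunits split by position. MT-CO1 (chrM:5904-7445), the catalytic subunit, rose by a log2 fold change of 0.22 (SE 0.0540, adjusted p = 0.000585 by edgeR, DESeq2 adjusted p = 0.146), and its values by line are given with the comparison of lines. MT-CO2 (chrM:7586-8269), which holds the copper site that receives electrons from cytochrome c, had 91.6 to 171 CPM in mock and 115 to 193 CPM in arsenite libraries and was not called (log2 fold change 0.11, SE 0.0789, adjusted p = 0.263 by edgeR). MT-CO3 (chrM:9207-9990) had 482 and 468 CPM in NES mock, 333 and 338 CPM in NES arsenite, 469.8 and 488 CPM in NLS mock and 365 and 370.0 CPM in NLS arsenite libraries. In G3BP1 it had 513 and 578 CPM in mock and 476 and 549.9 CPM after arsenite, which overlap. It fell by 0.32 (SE 0.0514, adjusted p = 1.54e-07 by edgeR).

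Complex V, the ATP synthase, has the subunits MT-ATP8 and MT-ATP6, the second of which forms part of its proton channel. Neither was called. MT-ATP6 had 108 to 206 CPM in mock and 128 to 204 CPM in arsenite libraries (log2 fold change 0.16, SE 0.0807, adjusted p = 0.121 by edgeR), and MT-ATP8 had 38.2 to 53.8 CPM and 38.8 to 67.3 CPM (log2 fold change 0.050, SE 0.124, adjusted p = 0.787 by edgeR).

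The ribosomal RNA rows were close to the limit of detection. MT-RNR1, the small-subunit RNA of the mitochondrial ribosome, had 4 and 2 counts in NES mock, 20 and 13 in NES arsenite, 4 and 2 in NLS mock, 0 and 8 in NLS arsenite, 1 and 3 in G3BP1 mock and 3 and 9 in G3BP1 arsenite libraries. Its average log2 fold change was 1.62 (SE 0.442, adjusted p = 0.00190 by edgeR), but the libraries separated in NES alone and the zero lies in an arsenite library. MT-RNR2, the large-subunit RNA, had 7 to 25 counts in mock and 9 to 47 in arsenite libraries and was not called (log2 fold change 0.41, SE 0.210, adjusted p = 0.118 by edgeR).

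Of the 22 transfer RNA rows, 19 were tested, 6 rose and 8 fell, against 19.4% of all rows higher and 18.6% lower. Among 11 heavy-strand transfer RNA rows, the 5 between MT-CO3 and MT-ND5 fell. MT-TR (arginine), shown above, had 249.7 and 231 CPM in NES mock, 155 and 125 CPM in NES arsenite, 215 and 225 CPM in NLS mock and 123 and 115 CPM in NLS arsenite libraries. G3BP1 had 203 and 257 CPM in mock and 190.3 and 174 CPM after arsenite. No arsenite library reached the lowest mock library, and the fall of 0.66 (SE 0.0691, adjusted p = 2.67e-14 by edgeR) was the lowest average log2 fold change of the 34 rows. MT-TH (histidine) fell by 0.64 (SE 0.0711), MT-TS2 (1 of the 2 serine transfer RNAs) by 0.48 (SE 0.0628), MT-TG (glycine) by 0.42 (SE 0.0764) and MT-TL2 (1 of the 2 leucine transfer RNAs) by 0.38 (SE 0.0631), with edgeR adjusted p-values of 3.67e-06 or smaller.

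The heavy-strand transfer RNA rows outside that stretch had log2 fold changes above 0 except MT-TK (lysine, −0.28, SE 0.232, adjusted p = 0.354 by edgeR). MT-TI (isoleucine), MT-TM (methionine), MT-TW (tryptophan), MT-TD (aspartate) and MT-TT (threonine) rose, by log2 fold changes from 0.24 to 1.06. Of these, MT-TD had 1 to 11 counts in mock and 7 to 15 in arsenite libraries. The edgeR adjusted p of MT-TM was 0.0152, a call lost under 5 of 19 alternatives, with 0.0510 without NLS mock replicate 1, 0.0795 without G3BP1 mock replicate 1 and 0.0605 without G3BP1 arsenite replicate 2. MT-TI lost its call without NLS mock replicate 2 (0.0763) or NLS arsenite replicate 1 (0.0808), and MT-TD without NES mock replicate 2 (0.0643) or G3BP1 arsenite replicate 2 (0.0538).

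On the light strand MT-TE (glutamate), next to MT-ND6, had 726 to 959 CPM in mock and 561 to 789 CPM in arsenite libraries and fell by 0.32 (SE 0.0512, adjusted p = 1.07e-07 by edgeR). MT-TP (proline) had 244 to 322 CPM in mock and 287 to 368 CPM in arsenite libraries and rose by 0.20 (SE 0.0544, adjusted p = 0.00151 by edgeR). In the cluster of 4 neighbours, the log2 fold change was −0.051 for MT-TA, −0.085 for MT-TN, −0.13 for MT-TC and −0.20 for MT-TY. Only the last 2 were called (adjusted p = 0.00571 by edgeR for MT-TC and 1.93e-05 for MT-TY), and MT-TC not without G3BP1 mock replicate 2 (0.0801). By line, the changes of these 4 neighbours were, in the same order, −0.10, −0.16, −0.18 and −0.26 in NES. They were −0.20, −0.22, −0.26 and −0.30 in G3BP1. In NLS they were 0.15, 0.12, 0.0385 and −0.045, and none was called there. The joint test for a difference among lines called none of the 4 (edgeR adjusted p from 0.110 for MT-TN to 0.361 for MT-TY). MT-TS1 and MT-TQ, the remaining light-strand transfer RNA rows, were not called (log2 fold changes of 0.032, SE 0.0483, and −0.11, SE 0.0877).

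The position pattern was also described within the mitochondrial counts, where the scaling of whole libraries plays no part. The 10 rows from MT-CO3 to MT-ND5 held 28.3% and 28.4% of mitochondrial counts in NES mock, 21.6% and 22.2% in NES arsenite, 27.0% and 28.7% in NLS mock, and 19.6% and 20.6% in NLS arsenite libraries. In G3BP1 they held 26.4% and 29.7% in mock and 24.7% and 26.3% in arsenite libraries. All 6 arsenite libraries were below all 6 mock libraries. The 10 rows were chosen for their fall in these same libraries, so this separation is a description and adds no support. The difference in means was −6.45 percentage points in NES, −7.73 in NLS and −2.60 in G3BP1. As shares of the mitochondrial total, the log2 changes were 0.58 for MT-ND1, 0.65 for MT-ND2, −0.43 for MT-ND3, −0.43 for MT-ND4 and −0.29 for MT-ND5. The sign turned in 4 rows, none of them called: MT-ND6, MT-TA, MT-TN and MT-TQ had changes of 0.104, 0.069, 0.035 and 0.0047 on this scale and were below 0 in the fit on whole libraries.

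Separation of the libraries was counted in the same way for all rows of the table. Of 34 tested rows, 4 did not overlap between the 6 mock and 6 arsenite libraries, 2 above (MT-ND1 and MT-ND2) and 2 below (MT-ND3 and MT-TR), against 11.4% of all rows, 6.44% above and 4.97% below. Within 1 line the 2 libraries of each treatment do not overlap in 58.2% of all rows in NES, 56.8% in NLS and 55.0% in G3BP1. With each line taken by itself, 4 rows (MT-ND1, MT-TI, MT-TM and MT-ND2) were above in every line, against 12.5% of all rows, and 5 (MT-ND3, MT-TR, MT-ND4, MT-TH and MT-ND5) were below in every line, against 11.2%.

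Within lines, with all 12 libraries sharing 1 estimate of the spread, arsenite called 19 of 34 mitochondrial rows in NES (8 higher, 11 lower, against 20.3% of all rows, 10.9% higher and 9.41% lower), 19 in NLS (8 higher, 11 lower, against 17.8%, 9.67% higher and 8.14% lower) and 14 in G3BP1 (3 higher, 11 lower, against 16.4%, 9.22% higher and 7.15% lower). The 8 higher rows in NES include MT-RNR1, which passed the filter only through the NES arsenite libraries. MT-ND1 and MT-ND2 rose and MT-ND3, MT-TR, MT-ND4, MT-TH, MT-TS2 and MT-ND5 fell in all 3 lines. MT-ND4 fell by 0.39 in NES (SE 0.0771), by 0.74 in NLS (SE 0.0760) and by 0.50 in G3BP1 (SE 0.0741), with edgeR adjusted p-values of 2.46e-05 or smaller. Of the 10 rows from MT-CO3 to MT-ND5, 9 fell in NES, 10 in NLS and 6 in G3BP1. The log2 fold changes of all 10 were below 0 in each line, with medians of −0.502, −0.612 and −0.302. As the 10 rows were chosen from these same libraries, these values are a description too.

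The G3BP1 counts rested on replicate 2 of the mock group, which held 3.11% mitochondrial counts against 2.83% in replicate 1. Without it 3 mitochondrial rows were called in that line (MT-ND2 and MT-TP higher, MT-TE lower), against 9.38% of all rows in that fit, and none of the 10 rows from MT-CO3 to MT-ND5 was among them. The median log2 fold change of those 10 was then −0.0799, with 7 of them below 0. By DESeq2 11 rows were called in NES, 13 in NLS and 5 in G3BP1, against 7.65%, 7.30% and 6.61% of all rows with an adjusted p.

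**Figure D5:**
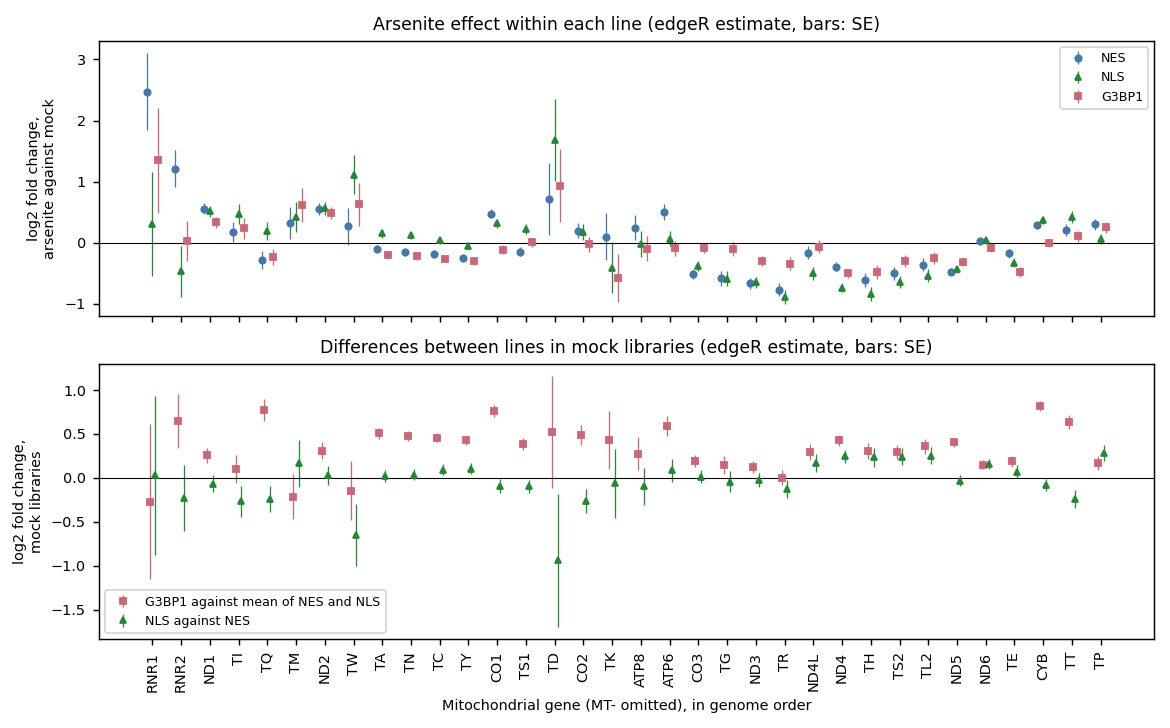
Log2 fold changes (bars are standard errors) of the 34 tested mitochondrial rows in genome order: arsenite against mock within each line (top), and mock libraries of G3BP1 against the mean of NES and NLS and of NLS against NES (bottom). The 3 lines lie on the same side of 0 from MT-CO3 to MT-ND5, and in the bottom panel the G3BP1 points lie above 0 for all but MT-RNR1, MT-TM and MT-TW.

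Whether the arsenite effect differed among the lines was tested jointly. MT-CO1 was the only mitochondrial row called (adjusted p = 0.000799 by edgeR), against 0.183% of all rows tested, and 17 of the 34 had an unadjusted p under 0.05, against 8.37% of all rows. MT-CO1 had 539.9 and 479.5 CPM in NES mock and 770.0 and 645 CPM in NES arsenite, and 509 and 449 CPM in NLS mock and 565 and 628 CPM in NLS arsenite libraries. In G3BP1 it had 832 and 847 CPM in mock and 679 and 868 CPM in arsenite libraries. Its log2 fold change was 0.48 in NES (SE 0.0769), 0.32 in NLS (SE 0.0785) and −0.12 in G3BP1 (SE 0.0740). The G3BP1 line was high before treatment, and its arsenite libraries lay on either side of its mock libraries. The call was lost without replicate 1 of G3BP1 arsenite (adjusted p = 0.0949 by edgeR), and DESeq2 called 0 mitochondrial rows in this test, 9 with an unadjusted p under 0.05, against 1.65% of all rows. MT-CYB, with log2 fold changes of 0.285, 0.37 and −0.0075 in the same order, missed the threshold (adjusted p = 0.0647 by edgeR) and passed it under 9 of 19 alternatives, with edgeR adjusted p-values from 0.00110 to 0.444 over those run with edgeR and an adjusted p of 1 by DESeq2.

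The lines were also compared without arsenite. In mock libraries 22 of the 34 mitochondrial rows were higher in G3BP1 than in the mean of NES and NLS and 0 were lower, against 10.6% of all rows higher and 8.28% lower. The median log2 fold change of the 34 rows was 0.33, beside −0.0124 over all rows. MT-CYB had the highest of them, 0.82 (SE 0.0561, adjusted p = 4.31e-29 by edgeR), from the mock values given above. MT-TQ (glutamine) had 128 and 151 CPM in G3BP1 mock against 69.5 to 96.1 CPM in the other mock libraries, a log2 fold change of 0.77 (SE 0.121, adjusted p = 6.72e-08 by edgeR). MT-CO1 was higher by 0.76 (SE 0.0661, adjusted p = 6.81e-21 by edgeR). MT-ND6 was higher by 0.15 (SE 0.0520, adjusted p = 0.0306 by edgeR). All 4 complexes were represented among the calls, with 6 of 7 rows for complex I, MT-CYB, all 3 rows of complex IV, and MT-ATP6. MT-ND3 and MT-TR, which fell after arsenite in every line, were not called between lines (log2 fold changes of 0.12, SE 0.0702, and 0.0021, SE 0.0886).

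Without replicate 2 of G3BP1 mock, 11 rows were called, all higher, among them MT-CYB (0.76), MT-CO1 (0.74) and MT-ND5 (0.25), against 9.14% of all rows called in that fit. DESeq2 also called 11 rows, against 12.1% of all rows, and scaling by total counts alone 14, against 19.7%. That scaling turned the split over all rows from 1388 higher and 1085 lower to 1027 higher and 1558 lower. In 19 of the 34 rows both G3BP1 mock libraries lay above all 4 other mock libraries, against 17.5% of all rows, and after arsenite the same held for 20 rows, against 17.6%.

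NLS and NES mock libraries differed in 2 mitochondrial rows, both higher in NLS, against 6.92% of all rows, 3.07% higher and 3.85% lower. They were MT-ND4 (log2 fold change 0.25, SE 0.0738, adjusted p = 0.0197 by edgeR) and MT-TP (0.28, SE 0.0895, adjusted p = 0.0316 by edgeR). MT-ND4 lost its call without NES mock replicate 2 (0.195) or NLS mock replicate 1 (0.0899), and MT-TP without either of these or NES mock replicate 1 (0.178, 0.342 and 0.112). DESeq2 called 0 and found 1 row with an unadjusted p under 0.05, against 8.57% of all rows.

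The nuclear partners of these genes were examined from lists made with earlier results of these data known, and the same doubt about strand applies to their rows. Of 76 nuclear subunits of oxidative phosphorylation, 43 had fewer than 10 counts in every library and 24 were tested. Of these 10 rose and 1 fell after arsenite, against 38.0% of all rows called in either direction, 19.4% higher and 18.6% lower. CYC1, cytochrome c1 of complex III, rose from 8.31 ± 3.21 to 17.1 ± 5.26 CPM (n = 6 each, SD), or by a log2 fold change of 1.07 (SE 0.235, adjusted p = 9.83e-05 by edgeR), and NDUFS8 and NDUFV2 of complex I rose by 1.03 (SE 0.286) and 0.89 (SE 0.220). The median log2 fold change of the 24 rows was 0.267.

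Of 45 genes for the copying, transcription and RNA processing of mitochondrial DNA, 21 were tested, 7 rose and 0 fell. Thus 33.3% were called, all higher, against 38.0% of all rows in either direction, 19.4% higher and 18.6% lower. The median log2 fold change of the 21 rows was 0.182, beside −0.0122 over all rows. PDE12, a phosphodiesterase that trims poly(A) tails in mitochondria, rose from 25.6 ± 5.86 to 43.8 ± 7.09 CPM (n = 6 each, SD), or by a log2 fold change of 0.77 (SE 0.144, adjusted p = 4.44e-06 by edgeR). ANGEL2 rose by 0.95 (SE 0.190) and MTERF2 by 0.41 (SE 0.111). Of 78 mitochondrial ribosomal protein rows 26 were tested, 6 rose and 1 fell. In either direction this is 26.9%, against 38.0% of all rows, 19.4% higher and 18.6% lower. The median log2 fold change of the 26 rows was 0.153. MRPL35 rose by 1.04 (SE 0.242), MRPL16 by 1.004 (SE 0.137) and MRPL40 by 0.97 (SE 0.198).

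Of 11 chaperone, protease and stress-relay genes of mitochondria 7 were tested, 2 rose and 3 fell, against 19.4% of all rows higher and 18.6% lower. Which strand the reads of these rows came from is not known either. The chaperonin HSPD1 rose from 48.4 ± 9.31 to 90.6 ± 15.5 CPM (log2 fold change 0.91, SE 0.106, adjusted p = 2.83e-12 by edgeR). The protease LONP1 fell from 139.5 ± 15.6 to 97.4 ± 17.2 CPM (−0.52, SE 0.0779, adjusted p = 2.28e-08 by edgeR), and the chaperone HSPA9 fell by 0.66 (SE 0.175, adjusted p = 0.00146 by edgeR).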

How the data were processed

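RNA of 12 Huh-7.5 libraries was analysed. Total RNA was taken up in Trizol, depleted of ribosomal RNA and made into libraries with a directional NEBNext kit, per the labels' protocols. What the authors deposited is 1 file of unnormalized counts, a unit judged from its whole numbers and unequal column totals. The submitters' processing notes name Trim Galore, Subread, featureCounts, edgeR and GRCh38.p13; versions and settings are not given in the sources used here. Of 16 value columns, 4 could not be tied to a label and stayed out.

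Counts were fitted over the whole table with edgeR 4.0.16 (R 4.3.3): TMM scaling, filterByExpr (minimum count 10, minimum total 15), quasi-likelihood F test and Benjamini-Hochberg adjustment, with calls at an adjusted p under 0.05. The average effect used line and treatment as additive terms (8 residual degrees of freedom), and other contrasts 1 mean per group (6). Standard errors come from the fold change and F. CPM use TMM-scaled library sizes. The fit was tested on simulated data. Library totals are given in the report, and intervals of shares are Wilson 95% intervals, which cover counting error only.

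Alternatives were DESeq2 1.42.0, 2 other scalings, scaling without mitochondrial rows, 2 other filters, a replicate block, and each library left out. Members and gene lists were chosen with earlier results of these data known. All 37 rows were accounted for; from each list the 3 called rows with the largest change and a mean of at least 10 counts were named, except from the cell marker lists, given as counts. Replicate pairs differed beyond sampling noise in all 6 groups (chi-square over rows with at least 20 counts).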

Additional observations from a re-analysis of the deposited data

Results flagged for a closer look

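The MT-CO1 row stood out because a direct test found that its arsenite effect differed among the lines (edgeR adjusted p = 0.000799). It rose in NES and NLS, by log2 fold changes of 0.48 and 0.32, and had −0.12 in G3BP1, where it was not called. Over the alternatives the edgeR adjusted p ranged from 4.77e-08, without replicate 2 of G3BP1 arsenite, to 0.0949, without replicate 1 of that group, and DESeq2 gave an unadjusted p of 0.0123 and an adjusted p of 1. The 2 G3BP1 arsenite libraries, at 679 and 868 CPM, were further apart than the replicates of any other group of the row. Reads shared with the nuclear pseudogene row MTCO1P12, which had 78 to 141 counts per library, were not tested.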

How the results depend on the processing

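The average arsenite effect called 24 mitochondrial rows, and between 21 and 27 under the 19 alternatives. Of the single-row results, 0 of 3876 reversed a call, and 96 changed sign while called in neither fit. The DESeq2 test called 11 rows in NES, 5 in G3BP1, 0 for the difference among lines, 11 for G3BP1 mock and 0 for NLS mock. Scaling by total counts alone called 3 for the difference among lines, 14 for G3BP1 mock and 5 for NLS mock, and it moved the median of all rows in the G3BP1 mock comparison from −0.0124 to −0.106. The difference among lines called 2 rows with DESeq2 size factors, 2 with no filter and 2 with a mean of at least 1 CPM. With the replicate block it called 3 rows, the average effect 24, NES 21, NLS 19, G3BP1 15, G3BP1 mock 22 and NLS mock 3. Deviations from the group means of libraries with the same number had a Pearson's r across 6521 rows of −0.0492 for NES, −0.0101 for NLS and 0.00578 for G3BP1, and the numbers were not taken as a pairing.

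Leaving out 1 library at a time gave 22 to 27 rows for the average effect, 14 to 20 in NES, 15 to 19 in NLS, 3 to 14 in G3BP1, 1 to 5 for the difference among lines, 11 to 22 for G3BP1 mock and 0 to 3 for NLS mock. A group left with 1 library is assumed to vary like the others. The 3 rows in G3BP1 and the 11 for G3BP1 mock came without replicate 2 of G3BP1 mock. The 5 among lines came without that library or without NES arsenite replicate 2. NLS mock had 0 without NES mock replicate 2 or NLS mock replicate 1, and 1 without NES mock replicate 1. The log2 ratio of mitochondrial shares was −0.165 and stayed between −0.198 and −0.134, and that of light to heavy counts was 0.146 and stayed between 0.121 and 0.187. The cause of these shifts was not tested. Depth limits the rows MT-RNR1, MT-RNR2, MT-TD and MT-TK, and MT-TF, MT-TV and MT-TL1 could not be tested.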

Other observations

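Nuclear pseudogenes of mitochondrial genes are copies of mitochondrial sequence in nuclear DNA. By name 402 rows were such copies, with 818 to 991 counts per library in sum, against 23648 to 36224 for the mitochondrial rows. How closely each copy matches its mitochondrial gene was not examined. Of the 402, 38 were tested. MTND2P28 had 37 to 93 counts and rose by a log2 fold change of 0.78 (SE 0.123, adjusted p = 9.40e-08 by edgeR), beside 0.53 for MT-ND2. MTND1P23 had 60 to 105 counts and rose by 0.29 (SE 0.103, adjusted p = 0.0188 by edgeR), beside 0.47 for MT-ND1. MTCO1P12 was not called (0.18, SE 0.0963), beside 0.22 for MT-CO1. MTATP6P1 and MTCO3P12 were not called either (0.15, SE 0.127, and −0.15, SE 0.247), beside 0.16 for MT-ATP6 and −0.32 for MT-CO3. The choice of these rows followed a look at their values, and the reads they may share with the mitochondrial rows were not tested apart.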
